A study of Mus musculus with 24 samples.

Results

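The genes described here are 33 genes typical of the choroid plexus, measured in RNA from the cerebella of 24 mice. They are known choroid plexus genes, and the list was drawn up with earlier results of these data known. All 33 were found among the 54232 genes counted. The choroid plexus is a folded, ciliated epithelium around leaky capillaries that hangs in the brain ventricles and secretes cerebrospinal fluid. The plexus of the fourth ventricle lies directly under the cerebellum. Its epithelial cells make large amounts of transthyretin (gene Ttr), the carrier of thyroxine and of the retinol-binding protein, which hardly any other cell of the brain makes.

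The study asked how the phosphorylation site S776 of ATXN1 bears on spinocerebellar ataxia type 1 (SCA1), a polyglutamine disease in which cerebellar Purkinje cells degenerate. All mice were 6 weeks old, on a C57BL/6J background. The WT mice (n = 8) carried 2 normal alleles (Atxn1 2Q/2Q). SCA1 mice (n = 4) carried an expanded knock-in allele (Atxn1 154Q/2Q), SCA1 S776A mice (n = 4) carried the S776A substitution on the expanded allele (154Q[S776A]/2Q), S776A double mice (n = 4) carried it on both alleles (154Q[S776A]/2Q[S776A]) and WT S776A homozygous mice (n = 4) carried it on 2 normal alleles (2Q[S776A]/2Q[S776A]). The substitution was made by CRISPR/Cas9 editing, and the knock-in allele is expressed from the gene's own locus in every cell that uses it. The mice of a group are separate animals, so the p-values measure the spread between animals of a group.

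Each library held 62163600 to 88430180 fragments counted on genes (median 74852158). The study's text states 2 sequencing batches but does not list them, and the batches were therefore read from how the fragments of each library mapped (the shares left unmapped, mapped to many places, outside genes or to several genes), which placed WT mice 1 to 4 and all SCA1, SCA1 S776A and S776A double mice in batch 1 (16 mice), and WT mice 5 to 8 and the WT S776A homozygous mice in batch 2 (8 mice). This grouping used no gene. Levels are given as CPM, the fragments on a gene per 1000000 on all genes of the library, scaled by TMM (trimmed mean of M values), and every series of values runs from mouse 1 to mouse 4 of a group (5 to 8 for WT of batch 2). In bulk tissue, fewer cells of a type and less RNA per cell cannot be told apart.

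Ttr ran from 8.31 CPM (S776A double mouse 2) to 4859 CPM (SCA1 mouse 4), a 585-fold range. In batch 1 it was at 180.5, 9.20, 1614 and 1609 CPM in WT mice of batch 1, 1583, 2798, 836 and 4859 CPM in SCA1, 18.8, 2954, 2484 and 1612 CPM in SCA1 S776A and 10.6, 8.31, 2879.5 and 2387 CPM in S776A double mice. In batch 2 it was at 2660.3, 506, 1245 and 1892 CPM in WT and 9.97, 879.8, 614 and 851 CPM in WT S776A homozygous mice. In 5 mice Ttr was under 20 CPM, namely WT 2, SCA1 S776A 1, S776A double 1 and 2 and WT S776A homozygous 1, while 18 mice were over 400 CPM and only WT 1 lay between. The low mice came from 4 of the 5 genotypes and from both batches, and every genotype also held mice with much Ttr, so all groups overlapped. Even the lowest library had 601 fragments on Ttr. The 33 genes together took 0.0324% to 0.876% of all fragments on genes.

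**Figure D1:**
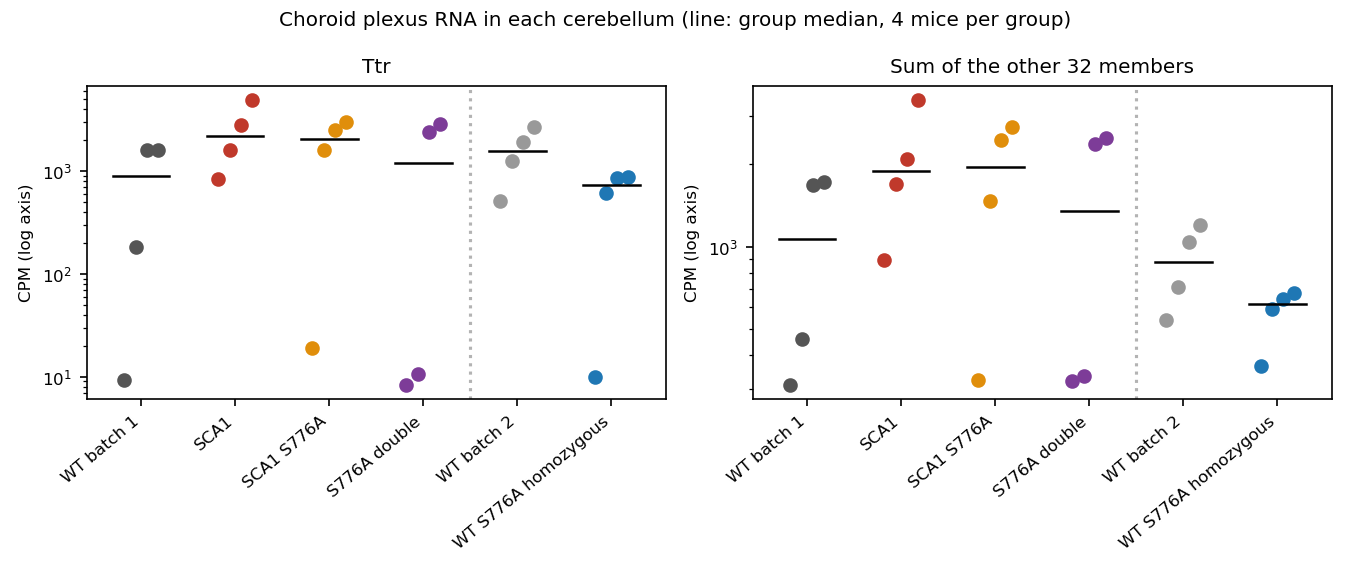
CPM of Ttr (left) and summed CPM of the other 32 choroid plexus genes (right) on log axes, 1 point per mouse by genotype, with a line at the median of 4 mice and a dotted line between batch 1 and batch 2. In 5 mice, spread over 4 genotypes, Ttr was under 20 CPM, and the other genes' sum was low in those mice too.

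Group means of log2 CPM of Ttr did not separate the genotypes. The exact two-sided permutation test within batches, with 4 mice against 4, gave p = 0.20 for SCA1 against WT (11.01 ± 1.09 and 8.00 ± 3.53 log2 CPM, SD), and SCA1 was higher in 12 of 16 pairs of mice. For WT S776A homozygous against WT the p was 0.143 (8.02 ± 3.14 and 10.38 ± 1.03 log2 CPM, SD, n = 4 each, exact permutation test), with the homozygous mouse higher in 3 of 16 pairs. The other 5 comparisons had exact permutation p-values of 0.286 to 0.971, and the smallest p that 4 against 4 allows is 0.0286. After Benjamini-Hochberg adjustment over the 7 comparisons the lowest was 0.60 (exact permutation tests).

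The other genes of the list rose and fell with Ttr from mouse to mouse. The level was highest in the same animal, SCA1 mouse 4, for 32 of 33 genes (Ttr included), the exception being Sulf1 (highest in SCA1 S776A mouse 3). In all 5 mice with the lowest Ttr, 18 of the 33 genes were lower than in any of the other 19. The 18 include Ttr, by which these mice were picked, so its place was fixed in advance. The share of all genes tested that part these mice, or peak in SCA1 mouse 4, was not computed. The ratio of the highest to the lowest mouse was over 100 for 9 genes, between 5 and 100 for 20 and under 5 for 4 (Sulf1, Rdh5, Otx2 and Cab39l). Wfdc2 is among those over 100, but its lowest mouse had only 1 fragment. The spread between mice of 1 group (SD of log2 CPM) of 27 of the 33 lay above the 95th percentile of all 22502 genes tested.

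**Figure D2:**
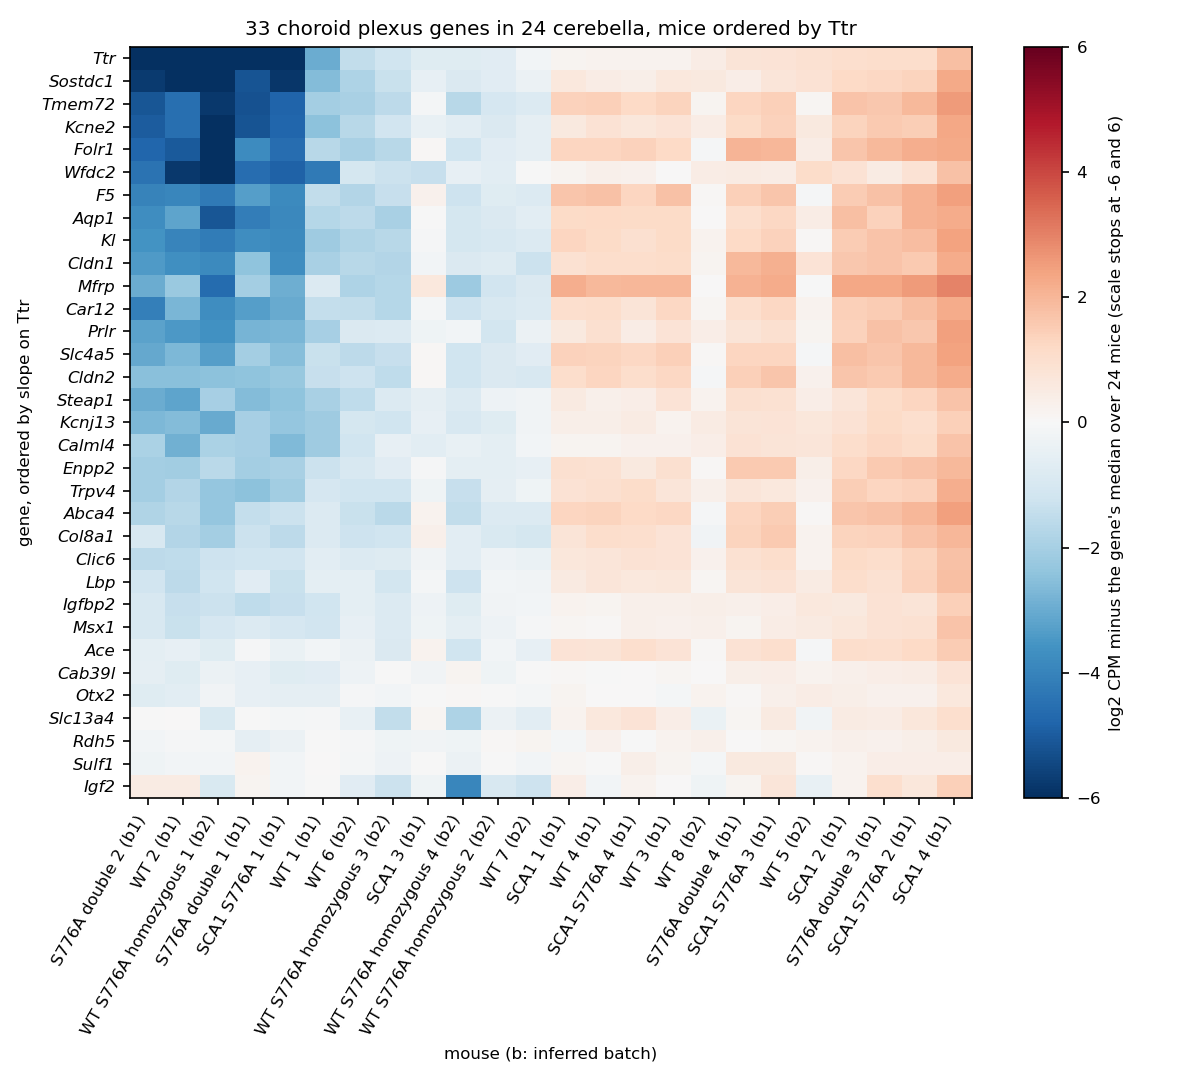
Levels of the 33 genes (rows, ordered by slope on Ttr) in 24 mice (columns, ordered by Ttr), drawn as log2 CPM minus the median of the gene over the mice. Most rows pass from blue to red with Ttr, while the lowest rows (Cab39l, Otx2, Slc13a4, Rdh5, Sulf1 and Igf2) change least with it. Some batch 2 mice are paler than batch 1 mice of like Ttr.

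To give each gene a number for how steeply it changes with Ttr, its counts were fitted on log2 CPM of Ttr, genotype and batch. The slope is the log2 change of a gene for each log2 unit of Ttr, so that a slope of 1 means a change in proportion to Ttr. It is not a measure of how tightly a gene follows Ttr. With edgeR's quasi-likelihood test and Benjamini-Hochberg adjustment over 22501 genes, 28 of the 32 other genes had a positive slope at an adjusted p under 0.01 and 0 a negative one, where 1.2% of all genes tested had a positive and 0% a negative one. The median slope was 0.42 over the 32 genes and 0.00069 over all genes tested. Of the 50 genes with the lowest p for a positive slope, 18 were in the list, and Folr1, Kcne2 and Sostdc1 took the first 3 ranks.

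Among carriers and secreted proteins, 7 of the 9 besides Ttr had a called positive slope, that is, one at an adjusted p under 0.01. Per kilobase of exon, the median level over 24 mice was 1192 CPM for Ttr and 100.3 for Enpp2, against 31.7 for Igfbp2, 6.73 for Clic6, 6.70 for Cab39l and 5.09 for Otx2, the genes next in order. Sostdc1 encodes a secreted antagonist of BMP and Wnt signaling. In batch 1 it was at 1.40, 0.0919, 12.9 and 11.5 CPM in WT mice of batch 1, 13.2, 19.2, 6.00 and 40.6 CPM in SCA1, 0.146, 21.1, 13.8 and 10.9 CPM in SCA1 S776A and 0.235, 0.157, 20.2 and 11.1 CPM in S776A double mice. In batch 2 it was at 15.5, 2.37, 6.55 and 12.6 CPM in WT and 0.0889, 5.23, 3.36 and 4.69 CPM in WT S776A homozygous mice. The 5 mice with little Ttr had at most 0.235 CPM of Sostdc1 and WT mouse 1 was intermediate for this gene too. Its slope was the steepest of the list (0.90, standard error 0.03, adjusted p = 9.19e-17, edgeR).

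Enpp2 encodes autotaxin, the enzyme that makes lysophosphatidic acid outside cells, and is also used by oligodendrocytes. The batch 1 levels were 238, 137, 1132 and 1092 CPM in WT mice of batch 1, 1112, 1356, 542 and 2231 CPM in SCA1, 148, 1884, 1745 and 882 CPM in SCA1 S776A and 139.6, 142, 1719.7 and 1738 CPM in S776A double mice. The batch 2 levels were 727, 296, 407 and 617 CPM in WT and 189.8, 383, 364 and 391 CPM in WT S776A homozygous mice. Every mouse kept at least 137 CPM of Enpp2, also where Ttr was near its minimum, and a straight line through the batch 1 mice gave 214 CPM (standard error 77.2) at no Ttr, 19.5% of the batch's median level. The slope of Enpp2 was 0.40 (standard error 0.04, adjusted p = 2.45e-06, edgeR).

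Igfbp2 binds insulin-like growth factors. Its batch 1 levels were 25.5, 22.6, 70.9 and 66.0 CPM in WT mice of batch 1, 66.4, 88.1, 47.6 and 158 CPM in SCA1, 22.3, 98.1, 76.8 and 72.9 CPM in SCA1 S776A and 20.2, 29.9, 105 and 70.8 CPM in S776A double mice. Its batch 2 levels were 91.2, 39.3, 51.2 and 73.4 CPM in WT and 24.2, 49.9, 32.6 and 35.0 CPM in WT S776A homozygous mice. The low mice were between 20.2 and 29.9 CPM of Igfbp2, a narrower range than that of Ttr, and its slope was 0.23 (standard error 0.03, adjusted p = 6.11e-05, edgeR). Wfdc2, a small secreted protein of epithelia, had a slope of 0.80 and F5, clotting factor V, one of 0.70. Wfdc2 had 1 to 3 fragments in each of the mice with little Ttr, so its slope is uncertain there. Col8a1 (a network collagen) and Lbp (which binds bacterial lipopolysaccharide) had slopes of 0.34 and 0.25.

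Igf2 and Sulf1 were the secreted proteins without a called slope. Igf2 encodes a growth factor of the choroid plexus stroma and meninges. Batch 1 mice held 1.69, 2.42, 1.71 and 1.54 CPM in WT mice of batch 1, 2.21, 1.95, 1.43 and 4.60 CPM in SCA1, 1.53, 2.74, 2.83 and 1.94 CPM in SCA1 S776A and 1.94, 2.38, 3.38 and 1.88 CPM in S776A double mice. Batch 2 mice held 1.24, 1.05, 0.719 and 1.44 CPM in WT and 0.889, 0.878, 0.699 and 0.113 CPM in WT S776A homozygous mice. The lowest Igf2 level was in WT S776A homozygous mouse 4, which had ample Ttr, and the low mice for Ttr lay within the range of the others. Its slope was 0.02 (standard error 0.04, adjusted p = 0.95, edgeR). Of the exon bases of Igf2, 64.5% also belong to other annotated genes, so its counts are uncertain. Sulf1 removes sulfates from heparan chains outside the cell. It was at 40.8, 36.1, 45.7 and 40.2 CPM in WT mice of batch 1, 44.0, 47.1, 40.7 and 53.5 CPM in SCA1, 36.8, 53.5, 61.5 and 51.8 CPM in SCA1 S776A and 46.4, 34.0, 53.3 and 60.4 CPM in S776A double mice, and in batch 2 at 42.7, 37.8, 36.6 and 38.2 CPM in WT and 36.1, 39.5, 32.5 and 31.7 CPM in WT S776A homozygous mice. Its whole range over 24 mice was 1.94-fold, high and low mice for Ttr overlapped, and its slope was 0.05 (standard error 0.01, adjusted p = 0.0125, edgeR).

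All 6 receptors and other membrane proteins had a called positive slope. Tmem72 is a transmembrane protein. In batch 1 it stood at 1.68, 0.306, 17.8 and 18.8 CPM in WT mice of batch 1, 18.4, 22.7, 6.39 and 41.1 CPM in SCA1, 0.247, 27.1, 19.0 and 16.0 CPM in SCA1 S776A and 0.188, 0.196, 21.8 and 17.3 CPM in S776A double mice. In batch 2 it stood at 7.69, 1.83, 4.01 and 7.96 CPM in WT and 0.127, 3.47, 2.36 and 2.24 CPM in WT S776A homozygous mice. All 5 low mice had at most 0.306 CPM of Tmem72, and its slope was 0.86 (standard error 0.03, adjusted p = 5.99e-16, edgeR). Folr1, the folate receptor through which the plexus passes folate into the cerebrospinal fluid, had the lowest p of all 22501 genes (slope 0.83, standard error 0.02) and ran from 0.0635 to 22.3 CPM. Kl, the klotho co-receptor of FGF23, had a slope of 0.67 and ran from 1.42 to 139.5 CPM. Mfrp, a frizzled-related membrane protein, had a slope of 0.62, the prolactin receptor gene Prlr 0.57 and Steap1, of a family of metal reductases, 0.46. Of the exon bases of Mfrp, 37.9% overlap other genes.

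Of the 8 channels and transporters, 7 had a called positive slope. Kcne2 is an accessory subunit of potassium channels. Its levels in batch 1 were 1.47, 0.352, 14.0 and 14.6 CPM in WT mice of batch 1, 11.9, 20.4, 5.92 and 39.3 CPM in SCA1, 0.291, 22.2, 20.7 and 12.7 CPM in SCA1 S776A and 0.223, 0.249, 23.5 and 18.0 CPM in S776A double mice. Its levels in batch 2 were 11.9, 2.48, 5.54 and 10.8 CPM in WT and 0.0889, 4.40, 3.61 and 5.17 CPM in WT S776A homozygous mice. The low mice had at most 0.352 CPM of Kcne2 and all but WT mouse 1 of the others had 2.48 CPM or more, and the slope was 0.84 (standard error 0.02, adjusted p = 8.76e-18, edgeR). Its neighbor on chromosome 16, Clic6, belongs to the chloride intracellular channel family. Clic6 was at 16.8, 9.17, 45.4 and 42.9 CPM in WT mice of batch 1, 42.0, 58.3, 22.2 and 87.0 CPM in SCA1, 11.7, 64.8, 54.7 and 47.7 CPM in SCA1 S776A and 11.3, 8.89, 54.5 and 49.1 CPM in S776A double mice. In batch 2 Clic6 was at 30.5, 14.6, 20.1 and 31.0 CPM in WT and 10.8, 20.8, 15.2 and 17.0 CPM in WT S776A homozygous mice. Its low mice kept 8.89 to 11.7 CPM, below every other mouse, and its slope was 0.28 (standard error 0.03, adjusted p = 1.57e-06, edgeR).

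Aqp1, the water channel of the plexus's apical membrane, had a slope of 0.68 and ran from 0.140 to 23.0 CPM. Slc4a5, a sodium bicarbonate cotransporter, had a slope of 0.53, and Kcnj13, an inward-rectifier potassium channel, one of 0.43, with 49.1% of its exon bases shared with another gene. Trpv4, an osmotically gated cation channel, and Abca4, a lipid transporter known from photoreceptors, both had slopes of 0.39. Slc13a4, a sulfate transporter also present in meningeal cells, had no called slope (0.06, standard error 0.03, adjusted p = 0.687, edgeR).

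Both tight junction genes had a called positive slope, 0.65 for Cldn1 and 0.49 for Cldn2, whose product forms the sodium pores of the plexus epithelium. Both transcription factors also had a called positive slope, though a small one. Otx2 is a homeobox factor needed for choroid plexus development. Otx2 was at 14.7, 13.7, 19.8 and 22.2 CPM in WT mice of batch 1, 23.8, 27.2, 20.9 and 33.6 CPM in SCA1, 14.8, 26.0, 26.4 and 22.0 CPM in SCA1 S776A and 15.0, 12.9, 25.7 and 22.2 CPM in S776A double mice. In batch 2 Otx2 was at 29.4, 20.3, 19.8 and 25.2 CPM in WT and 18.7, 20.9, 19.0 and 22.7 CPM in WT S776A homozygous mice. In batch 1 its 5 lowest levels were those of the 4 mice with little Ttr and of WT mouse 1, but they were still 12.9 to 15.0 CPM, and the line through batch 1 gave 14.8 CPM (standard error 0.604) at no Ttr, 66.9% of the median. Its slope was 0.09 (standard error 0.01, adjusted p = 2.21e-05, edgeR). Granule cells of the posterior cerebellum are a known further site of Otx2. Msx1, the other homeobox gene, had a slope of 0.20.

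Among enzymes and signaling adaptors 4 of 5 had a called positive slope. Car12, a carbonic anhydrase of the cell surface, had a slope of 0.59, the calmodulin-like gene Calml4 one of 0.41 and Ace, the angiotensin-converting enzyme, one of 0.15. Cab39l is a scaffold of the kinase LKB1. Cab39l was at 29.0, 27.7, 49.7 and 45.6 CPM in WT mice of batch 1, 48.3, 57.1, 39.2 and 80.1 CPM in SCA1, 27.7, 62.6, 61.4 and 46.8 CPM in SCA1 S776A and 32.5, 31.1, 60.3 and 57.7 CPM in S776A double mice. In batch 2 it was at 53.6, 36.5, 45.1 and 46.1 CPM in WT and 35.9, 38.7, 45.6 and 50.6 CPM in WT S776A homozygous mice. Every mouse kept at least 27.7 CPM of it, and the slope was 0.12 (standard error 0.01, adjusted p = 2.33e-05, edgeR). Rdh5, a retinol dehydrogenase, was the exception. Rdh5 levels in batch 1 were 8.32, 8.22, 9.91 and 10.1 CPM in WT mice of batch 1, 7.95, 10.7, 7.34 and 12.6 CPM in SCA1, 6.72, 11.0, 9.19 and 8.39 CPM in SCA1 S776A and 5.87, 7.73, 10.2 and 8.69 CPM in S776A double mice. Rdh5 levels in batch 2 were 10.0, 8.26, 9.55 and 10.5 CPM in WT and 7.86, 8.82, 7.09 and 7.18 CPM in WT S776A homozygous mice. High and low mice for Ttr overlapped in Rdh5, whose slope was 0.05 (standard error 0.01, adjusted p = 0.046, edgeR). Of its exon bases, 25.6% also belong to another gene.

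**Figure D3:**
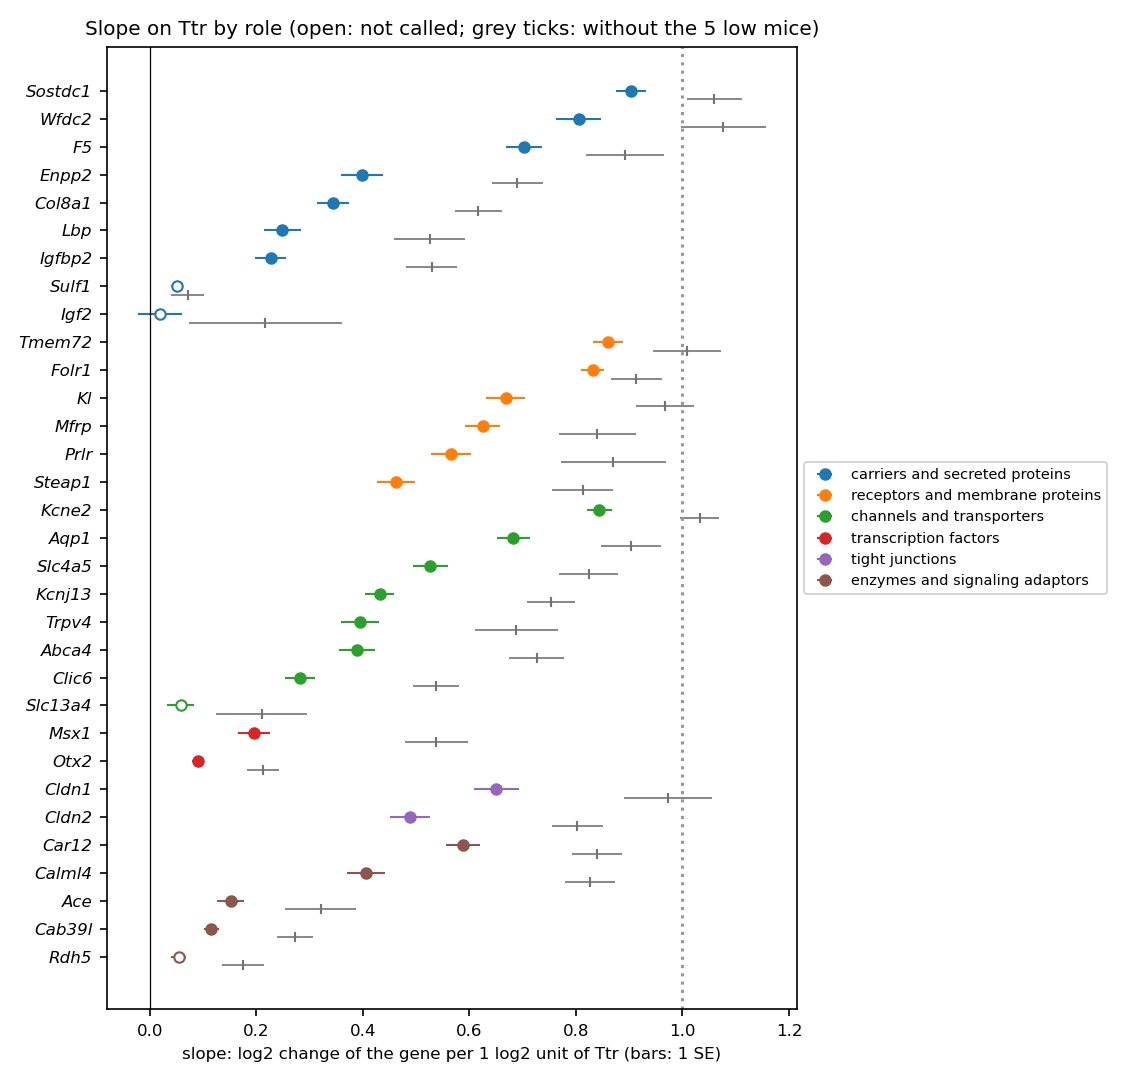
Slope on Ttr of each gene (log2 units of the gene per log2 unit of Ttr, bars 1 standard error), ordered within its role, with filled circles at an adjusted p under 0.01, and the slope without the 5 mice of lowest Ttr as a grey tick. Slopes run from 0.02 for Igf2 to 0.90 for Sostdc1, and without the low mice Sostdc1, Wfdc2, Tmem72 and Kcne2 lie at or just above 1.

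The slopes came nearer to proportion when the 5 mice with little Ttr were left out, a setting chosen after seeing the data. All 32 genes then had a steeper slope, the median was 0.78, and 27 had a positive slope at an adjusted p under 0.01 by edgeR (0.913% of all genes tested). Sostdc1 then had a slope of 1.06, Wfdc2 1.08, Kcne2 1.03, Tmem72 1.01, Cldn1 0.97, Kl 0.97, Folr1 0.91 and Aqp1 0.90. Wfdc2 had only 3 fragments in WT mouse 1, the mouse with the least Ttr in this fit. On a linear scale, straight lines of CPM on Ttr CPM were fitted for the listed genes only. The share of all genes tested with such values was not computed. In batch 1 the line had an r squared over 0.9 for 26 of 32 genes, and for 21 its level at no Ttr exceeded 2 standard errors. Set against the gene's median level, that remainder was 85.7% for Sulf1, 84.1% for Rdh5, 81.9% for Igf2, 79.0% for Slc13a4, 62.7% for Cab39l and 49.2% for Ace, but 0.82% for Kcne2 and 5.64% for Tmem72.

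Each batch was also examined on its own. The median slope over the 32 genes was 0.44 in batch 1 alone and 0.27 in batch 2 alone. The batch 2 slopes span a gap of 5.66 log2 units of Ttr, in a range of 8.06, with a single mouse below it. Among the 16 mice of batch 1, Pearson's r of log2 CPM with Ttr had a median of 0.970 over the 32 genes (Spearman's rho 0.949), and the adjusted permutation p of r was under 0.05 for 29 of them, against 1.43% of all genes tested. Since 4 of these mice form a cluster of low Ttr, r was also taken over the other 12, where its median was 0.975 and 28 genes passed (1.4% of all genes), and 0.916 after leaving out WT mouse 1 and SCA1 mouse 4, which were farthest from the median. For Kcne2 the r over these 12 mice was 0.996 (rho 0.965) with a permutation p of 1e-05, the smallest that 100000 resamples can give, and an adjusted p of 0.00239, and it was 0.981 without those 2 mice. Centering on each genotype left the batch 1 median at 0.969 for 16 mice and lowered it to 0.938 for the 12.

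Batch 2 had 7 mice above its single low mouse, and over these the median r was 0.938 (Spearman's rho 0.893). No gene passed after adjustment over all genes (exact permutation tests, 0% of all genes), but 27 of the 32 had an unadjusted p under 0.05 (3.25% of all genes), and 26 had an r over 0.8 (1.17% of all genes). Leaving out WT mice 5 and 8 lowered the median to 0.739. Sostdc1 had the highest r (0.993, rho 1.00, exact permutation p = 0.000198, adjusted p = 0.446), 0.982 without those mice. Centering on each genotype lowered the median r over the 7 mice to 0.83, and the lowest r was then -0.07 (Igf2).

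Other genes outside the list followed Ttr as well. The 10 with the lowest p were Defb11 (a beta defensin, slope 1.19), 2900040C04Rik (0.69), Prr32 (0.65), Gm853 (0.85), Krt8 (0.64), Crhr2 (the corticotropin-releasing hormone receptor 2, 0.63), Krt18 (0.62), Oca2 (0.54), Gm48898 (0.51) and Ooep (0.64). Krt8 and Krt18 encode the keratin pair of simple epithelia. Of 18 further known choroid plexus genes, 9 had a called positive slope by edgeR, among them the serotonin receptor gene Htr2c (0.43), the lactate transporter gene Slc16a8 (0.33) and the organic anion transporter gene Slco1a5 (0.30), with a median slope of 0.13. Slc22a8, another organic anion transporter of that list, had a slope of -0.03.

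Lists for other cell types of the dissected piece were read the same way. Of 12 ependymal genes, those of the ciliated cells that line the ventricles, 4 had a called positive slope (Pifo 0.27, Dynlrb2 0.19, Tekt1 0.17 and Cfap126 0.13), and the summed level of the 13 listed was 20.5 to 33.6 CPM in the 5 mice with little Ttr and 22.8 to 47.2 CPM in the other 19. Motile cilia genes are also used by other ciliated cells. By the same edgeR call 0 genes were called out of 12 for leptomeningeal and stromal fibroblasts, 10 for endothelium and 7 for mural cells. The count was also 0 out of 5 for red blood cells, 8 for Purkinje cells and 8 for granule cells. It was 0 as well out of 5 for Bergmann glia and astrocytes, 6 for oligodendrocytes and 5 for brainstem. Of all genes tested 1.2% were called, so 0 in lists this short is near that share, and genes not called may still move with Ttr. The steepest slope in these lists was that of Hoxb4 of the brainstem list (0.33, standard error 0.10, adjusted p = 0.101, edgeR). The fibroblast sum was 168.9 to 315 CPM in the 5 mice and 113.9 to 319.8 CPM in the others. Of the 13 brainstem genes listed, 12 were at 0 in at least 1 library, and their sum was 0.393 to 4.16 CPM. The part of ependymal cells in the slopes was not tested.

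Genotype was tested within batches, with the batch as a term in the edgeR fit. In none of the 7 comparisons was any of the 33 genes called (adjusted p under 0.01 and absolute log2 fold change over 0.5), by edgeR or by DESeq2. Over all genes the share called was 0.173% for SCA1 against WT, 0.0133% for SCA1 S776A against WT, 0.0267% for S776A double against WT, 0% for WT S776A homozygous against WT, 0.00444% for SCA1 S776A against SCA1, 0% for S776A double against SCA1 and 0% for S776A double against SCA1 S776A. At an unadjusted p under 0.05 the number of the 33 was 2, 1, 0, 1, 0, 1 and 0 in that order, where 8.25%, 3.93%, 6.93%, 9.98%, 4.35%, 3.64% and 2.96% of all genes passed.

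The fold changes of the genes lay on one side in several comparisons. All 33 were higher in SCA1 than in WT mice (median log2 fold change 1.09, 0.0016 over all genes) and all 33 were lower in WT S776A homozygous than in WT mice (median -0.98, all genes 0.015). For Ttr in SCA1 against WT mice, edgeR gave a log2 fold change of 1.56 ± 1.61 (standard error) at an adjusted p of 0.855. The value for SCA1 S776A against WT was 1.05 ± 1.59 (edgeR, adjusted p = 1.00), and for S776A double against WT it was 0.63 ± 1.58 (edgeR, adjusted p = 0.935). In WT S776A homozygous mice it was -1.42 (standard error 1.60, adjusted p = 0.744, edgeR). Each of these was within 1 standard error, and since the fit compares means of counts, its sign for the S776A double mice differs from that of the mean log2 CPM (-0.71). A difference of a few fold in the amount of choroid plexus RNA between genotypes was therefore not detectable with these groups.

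Adding the log2 CPM of Ttr to the fit took most of the spread between mice away. The median standard error of the genotype log2 fold changes of the 32 genes went from 0.83 to 0.86 over the 7 comparisons to 0.24 to 0.27. At equal Ttr no gene of the list was called in any comparison (edgeR, 0.116%, 0.00444%, 0.0267%, 0%, 0.00444%, 0% and 0% of all genes), and 1, 1, 5, 1, 1, 2 and 0 of 32 had an unadjusted p under 0.05 (6.32%, 3.43%, 8.01%, 12.9%, 4.3%, 3.52% and 3.46% of all genes). The median log2 fold change of the 32 genes went from 1.08 to 0.18 in SCA1 mice and from -0.94 to -0.09 in WT S776A homozygous mice. The lowest p was that of Folr1 in S776A double against SCA1 mice (log2 fold change 0.48, standard error 0.15, adjusted p = 1.00 by edgeR), and the widest change was that of Calml4 in S776A double against WT mice (0.88, standard error 0.31, adjusted p = 0.49 by edgeR). Otx2 had the lowest p in SCA1 against WT mice (0.33, standard error 0.12, adjusted p = 0.492 by edgeR).

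**Figure D4:**
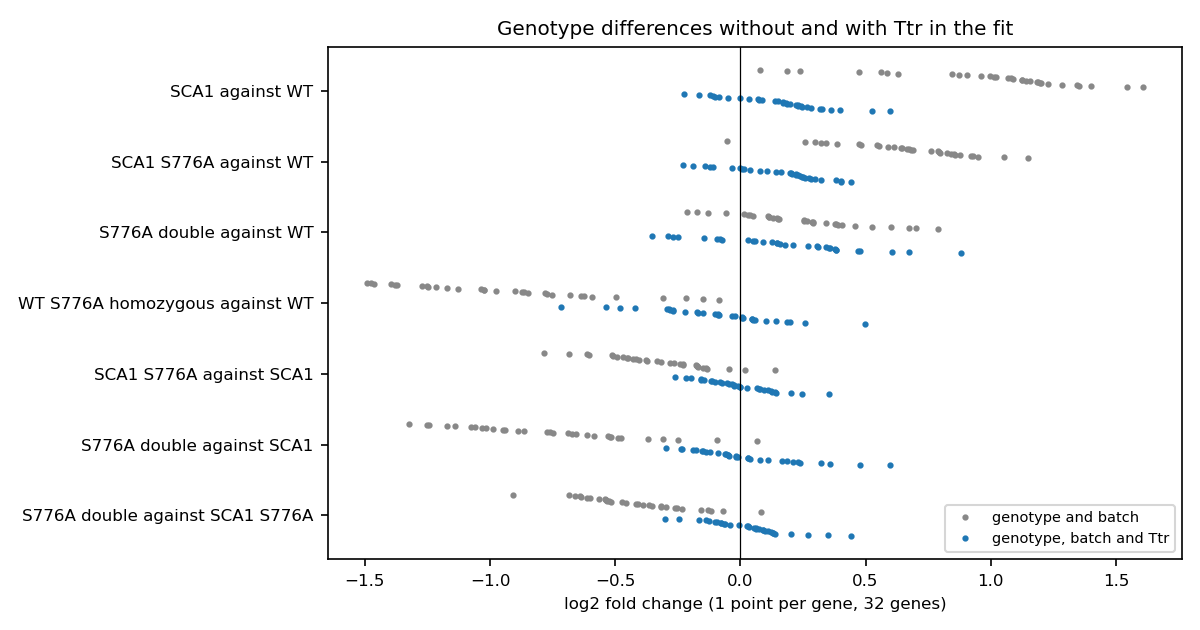
Log2 fold change of the 32 genes other than Ttr in each genotype comparison (1 point per gene), from the fit with genotype and batch (grey) and with Ttr added (blue). The grey points of SCA1 against WT center on 1.08 and those of WT S776A homozygous against WT on -0.94, while the blue ones center on 0.18 and -0.09, and no point was called.

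The batches differed in how much of the other genes came with a given amount of Ttr. Only WT mice were in both batches, so with genotype in the fit the batch term compares WT mice 5 to 8 with WT mice 1 to 4. Without Ttr in the fit, the lowest adjusted p of this term among the listed genes was 0.0475 (Slc13a4, edgeR). For Ttr itself the term was 0.89 (standard error 1.59, adjusted p = 0.683, edgeR). With Ttr as the reference, less of the other genes and more Ttr in batch 2 cannot be told apart. At equal Ttr, 13 of the 32 genes were called lower in batch 2 and 0 higher (edgeR, adjusted p under 0.01 and log2 fold change under -0.5), where 14.2% of all genes tested were called lower and 16.9% in either direction. Without the 5 mice of lowest Ttr, WT mouse 2 among them, 19 were called lower by the same rule, where 12.5% of all genes tested were. Mfrp was lowest (-2.33, standard error 0.26), followed by F5 (-1.94), Tmem72 (-1.62), Slc4a5 (-1.54), Abca4 (-1.51) and Folr1 (-1.44), while Kcnj13 (-0.02), Cab39l (0.01), Igfbp2 (0.04) and Wfdc2 (0.36) differed by less than 2 standard errors. Mfrp was at 1.58, 0.597, 11.0 and 10.8 CPM in WT mice of batch 1, 12.8, 14.0, 4.32 and 21.8 CPM in SCA1, 0.364, 16.5, 12.9 and 11.1 CPM in SCA1 S776A and 0.669, 0.354, 13.7 and 11.9 CPM in S776A double mice. In batch 2 Mfrp was at 2.69, 0.773, 1.50 and 2.86 CPM in WT and 0.114, 1.27, 0.836 and 0.619 CPM in WT S776A homozygous mice, so that WT mouse 5, with 2660.3 CPM of Ttr, had less Mfrp than SCA1 mouse 3, with 836 CPM of Ttr. In straight lines on Ttr, the rise of Mfrp was 4.24 times as steep in batch 1 as in batch 2, and it was over 2 times as steep for 13 genes. The share of all genes tested with such a ratio was not computed.

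Across the 32 genes, the batch difference at equal Ttr went with the length of the longest transcript (Spearman's rho -0.58) and hardly with its GC content (rho 0.08), as a description over genes that share libraries. The share of fragments outside genes was 9.52% to 12.0% in batch 1 and 5.23% to 6.31% in batch 2. The batches were formed partly by this share, so that it differs is no separate finding. Its part in the batch difference at equal Ttr was not tested. The slope on Ttr itself did not pass a test of the difference between batches for any of the 32 genes (edgeR, 0% of all genes), though 8 had an unadjusted p under 0.05 (9.57% of all genes). The slope was lower in batch 2 for 27 of the 32, among them all 8 with such a p. The share of all genes tested with a lower slope in batch 2 was not counted. The batch 2 slopes here span the wide gap in Ttr between its single low mouse and the rest.

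**Figure D5:**
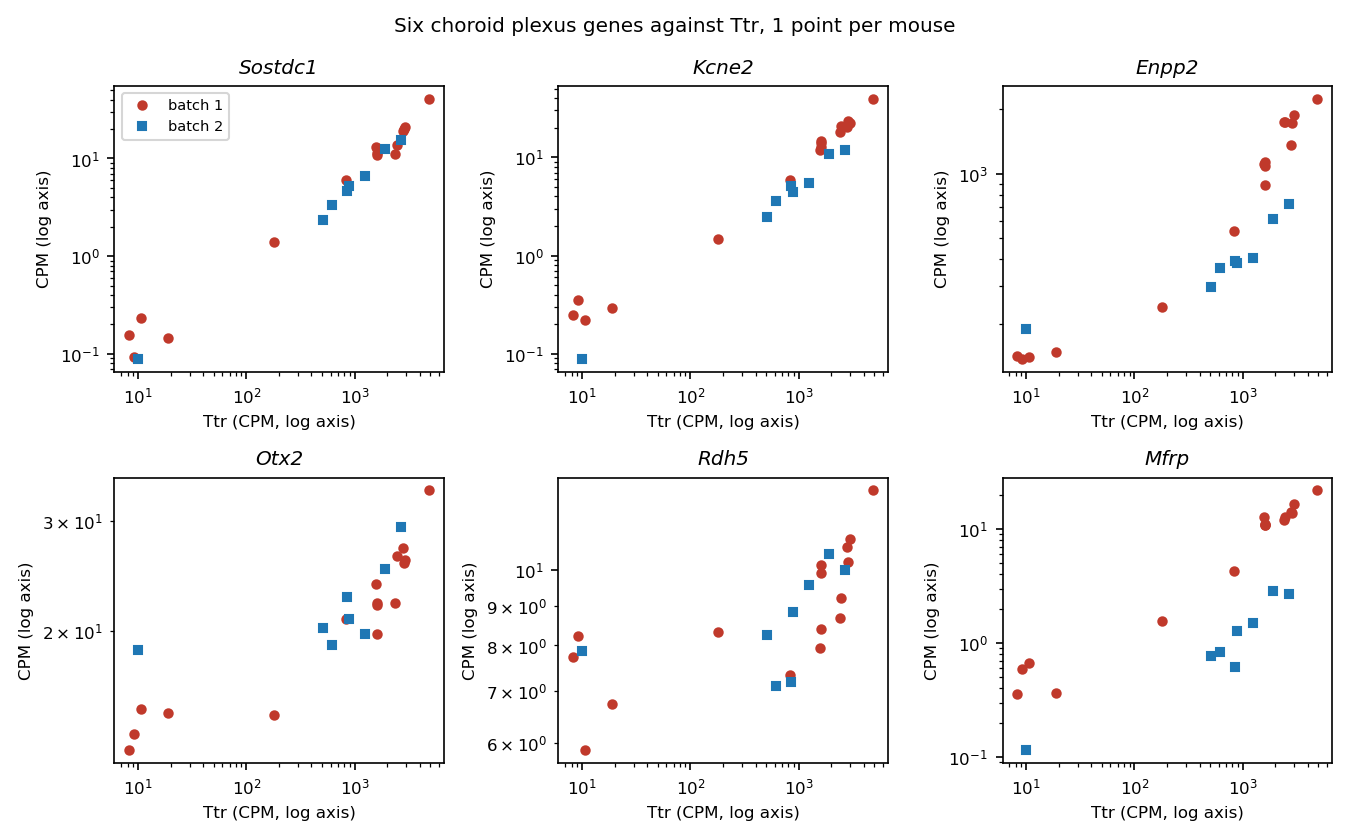
CPM of 6 of the genes against CPM of Ttr (both log axes), 1 point per mouse, batch 1 as red circles and batch 2 as blue squares. Sostdc1 and Kcne2 follow Ttr over the whole range, Enpp2 and Otx2 level off where Ttr is low, Rdh5 varies little, and Mfrp is lower in batch 2 at the same Ttr.

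Promoters of some of the genes are shown, as the 250 bases before the start of transcription. Their part in the shared rise and fall was not tested. RefSeq's GRCm38.p6 table held promoters for 26 of the 33. Ttr itself, Folr1, Sostdc1, Enpp2, Clic6, Lbp and Sulf1 had none there, so the motif counts leave them out. Capitals mark TATAAA (the letters of a TATA box, wherever they lie in the window) and TAATCC (a core homeobox site of the Otx type). Both strands were searched, where TTTATA and GGATTA are their reverse. A further window of Kcne2 and of Ace holds neither motif and is not shown. Kcne2, with a steep slope, has neither, while Kcnj13 and Cldn2 hold TATAAA 29 and 35 bases before the start, and in Ace, with a slope of 0.15, both motifs overlap, TTTATA beginning 31 and TAATCC 27 bases before the start.
Kcne2, chr16:92292139-92292388, plus strand: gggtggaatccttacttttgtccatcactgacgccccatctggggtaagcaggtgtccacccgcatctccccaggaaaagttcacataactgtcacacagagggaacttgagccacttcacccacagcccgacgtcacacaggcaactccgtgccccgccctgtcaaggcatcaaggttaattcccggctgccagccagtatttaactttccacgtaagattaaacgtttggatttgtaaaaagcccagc
Cldn2, chrX:139800558-139800807, plus strand: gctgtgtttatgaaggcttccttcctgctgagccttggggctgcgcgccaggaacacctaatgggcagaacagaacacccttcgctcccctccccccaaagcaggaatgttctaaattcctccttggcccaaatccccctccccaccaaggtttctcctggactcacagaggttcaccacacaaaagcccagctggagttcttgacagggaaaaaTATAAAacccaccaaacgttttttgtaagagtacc
Kcnj13, chr1:87394730-87394979, minus strand: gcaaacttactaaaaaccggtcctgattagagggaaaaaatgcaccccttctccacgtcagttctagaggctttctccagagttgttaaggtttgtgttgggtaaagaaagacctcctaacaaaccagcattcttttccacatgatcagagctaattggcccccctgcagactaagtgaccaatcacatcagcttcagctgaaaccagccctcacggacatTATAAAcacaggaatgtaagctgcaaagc
Ace, chr11:105967698-105967947, plus strand: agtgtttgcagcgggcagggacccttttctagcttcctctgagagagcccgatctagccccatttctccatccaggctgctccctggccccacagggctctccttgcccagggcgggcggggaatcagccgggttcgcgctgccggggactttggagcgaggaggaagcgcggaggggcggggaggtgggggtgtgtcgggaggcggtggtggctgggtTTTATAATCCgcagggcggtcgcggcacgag

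Some genes have several windows, 39 for the 26 genes and 32851 for the 27025 genes of the table, and more windows give more room for a match. TATAAA was in the promoters of 6 of the 26 genes (23.1%) and in those of 14.3% of the 27025. By window it was in 6 of 39 and in 12.4% of all windows. In Abca4, Slc4a5 and Otx2 it began 119, 127 and 192 bases before the start, farther than in the promoters shown. TAATCC was in 4 of 26 (15.4%, namely Abca4, Ace, Mfrp and Otx2) and in 7.21% of all genes, and by window in 4 of 39 and in 6.25% of all. TGTTTAC, a forkhead site (GTAAACA on the other strand), was in 1 of 26 (3.85%, Prlr) and in 3.54% of all genes. By window this was 1 of 39 and 3.17% of all. These matches are a description of the letters in the windows.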

How the data were processed

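RNA of 24 mouse cerebella was sequenced as paired reads, 1 library per mouse. Per the submitters' processing notes, the authors trimmed reads with Trimmomatic 0.36 and aligned them with STAR 2.7.2d to GRCm38.p6, and they deposited unnormalized counts of fragments per gene. The study's own batch correction came later and is not in these counts. The unstranded counts were used, and the other 2 columns of each file were not. Gene identifiers were matched to GENCODE M21 without version suffix (54079 of 54232 have a symbol), and 1 further feature is not reported here.

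The 33 genes, the cell type lists and the tests were chosen with earlier results of these data known. Batches were inferred by k-means (k of 2, 50 starts, silhouette 0.634). The 22502 genes kept by filterByExpr were scaled by TMM. In edgeR 4.0.16 (R 4.3.3), a robust quasi-likelihood model held terms for genotype and batch, and p-values were adjusted by Benjamini-Hochberg over all of them. Each slope fit added the log2 CPM of Ttr (prior count 2). The depth makes counting error small for most listed genes: 3 fragments is the floor of detection, and it covers counting error only. Correlations used 100000 permutations, or all permutations for 7 mice. The fits were tested on simulated data. Alternatives were DESeq2 1.42.0, DESeq2 after ComBat-seq (sva 3.50.0), limma 3.58.1, other scalings, filters, thresholds and references, single batches, and leaving out each mouse. Values are given by mouse for Ttr, the 5 other genes of highest level per kilobase, and the 3 steepest and 3 shallowest slopes. Mfrp was added after its values were seen. Overlapping genes, read without strand, cannot be told apart.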

Additional observations from a re-analysis of the deposited data

Results flagged for a closer look

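In groups of 4 mice, the log2 CPM of Ttr, of 11 other genes given by mouse and of the summed list were examined for a mouse far from the rest, as the gap to its nearest neighbor divided by the range of the group. Mfrp, also given by mouse, was not examined in this way. Of 78 groups, 10 passed Dixon's 95% limit, where chance passes about 1 in 20, and the genes are not independent. WT S776A homozygous mouse 1 stood below the rest of its group for Ttr (0.92 of the range, 9.97 CPM), Enpp2 (0.899), Sostdc1 (0.891), Tmem72 (0.867) and Kcne2 (0.911). SCA1 S776A mouse 1 stood below for Ttr (0.88, 18.8 CPM), Sostdc1 (0.866), Tmem72 (0.887) and Kcne2 (0.872). WT S776A homozygous mouse 4 stood below for Igf2 alone (0.884, 0.113 CPM).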

How the results depend on the processing

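No paired analysis was possible because the replicate numbers of the mice were given in the order of deposition and pair no animals. The count of 0 genes called in each of the 7 genotype comparisons was the same in every alternative run, including DESeq2, ComBat-seq followed by DESeq2, an adjusted p under 0.05 with no fold threshold and each mouse left out. The log2 fold change of Ttr passed no test and depended on single mice. Leaving out 1 mouse gave -0.088 to 1.14 for S776A double against WT (negative without S776A double mouse 3) and -0.87 to 0.028 for SCA1 S776A against SCA1 (positive without SCA1 mouse 4). Without the 5 mice of lowest Ttr, a setting chosen after seeing the data, it was 0.066 for S776A double against SCA1 and 0.16 for S776A double against SCA1 S776A, both negative with all mice (-0.93 and -0.42). The number of listed genes with a called positive slope on Ttr was 27 to 30 when 1 mouse was left out (0.777% to 1.28% of all genes tested) and 6 with batch 2 alone, which has fewer mice (0.0351% of all genes tested). The median slope was 0.78 without the 5 mice. With the mean of the other listed genes in place of Ttr the median slope was 0.94, but such slopes lie around 1 by construction. In batch 2 the median r was 0.739 without WT mice 5 and 8, and 0.83 over the 7 mice after centering on each genotype.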
